A study of Mus musculus with 8 samples.

Results

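The 9 genes described here encode secreted factors that act on blood or lymph vessels: the vascular endothelial growth factor family members Vegfa, Vegfb, Vegfc and Pgf, the vasoactive peptides Adm, Apln and Edn1, and the angiopoietin-like proteins Angptl4 and Angptl2. They were taken by gene name from expression arrays of mSCC-20, a line of mouse skin squamous cell carcinoma cells of the FVB/N strain. The 9 genes are 9 of 30139 gene names and are read by 10 of 39429 probes, 2 of them for Vegfa. All 9 passed the filter on dim probes, which asks for a signal above background in both replicates of 1 group or more, and are among the 17850 genes tested. The genes were chosen by name within a family, but with the microRNA-against-control log2 differences of these same arrays in view, so they count as selected on those differences: the levels and differences below describe the genes and are not independent evidence for the choice.

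RNA was read on 8 Agilent mouse arrays with a single dye. In the 0.2 set, named for its amount label of 0.2 µg, 2 arrays carried RNA of cells transfected with miR-193b-3p and 2 carried RNA of cells given a control microRNA instead (NC). In the 0.6 set, named for its amount label of 0.6 µg, 2 arrays carried RNA of cells transfected with miR-365a-3p and 2 that of NC cells. All groups are of this 1 tumour-derived line. The labels do not say what the amount refers to, how long after transfection RNA was taken, or whether replicates are separate cultures, so the p-values cover the spread between arrays, which may be technical. In the 0.2 set, NC replicate 1 and miR-193b replicate 1 lay on slide 1, NC replicate 2 on slide 2 and miR-193b replicate 2 on slide 3. The whole 0.6 set lay on slide 4, so set, slide and scan cannot be told apart.

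As background, vascular endothelial growth factors are dimers that bind receptor tyrosine kinases on endothelial cells: VEGF-A drives the sprouting of blood vessels, and VEGF-C that of lymph vessels. Adrenomedullin and apelin are short peptides cut from longer precursors; both widen vessels and act through G protein-coupled receptors, whereas endothelin-1 is a strong vasoconstrictor. Squamous carcinoma cells and keratinocytes are known sources of several of these factors, and the genes for VEGF-A, adrenomedullin and ANGPTL4 are well-known targets of hypoxia-inducible transcription factors. MicroRNAs lower messenger RNAs mainly through pairing of their seed, bases 2 to 8, with sites in the messenger.

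The 2 transfected microRNAs are shown because their seeds decide which sites were looked for. Both are from RefSeq, 22 bases long and written 5′ to 3′ with the seed in capitals.
miR-193b-3p: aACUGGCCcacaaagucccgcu
miR-365-3p: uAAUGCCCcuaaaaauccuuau
On GRCm38.p6, miR-193b-3p lies on the plus strand of chromosome 16 at 13449570 to 13449591. The mature miR-365-3p, taken here for the labels' miR-365a-3p, is encoded on the same strand at 13453895 to 13453916, and again on chromosome 11 at 79726467 to 79726488. The 2 seeds differ, and the 7-base DNA matches to them are GGCCAGT for miR-193b-3p and GGGCATT for miR-365-3p.

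Among the probes of the 9 genes, 1 held such a match, that of Adm for miR-365-3p. Its first 30 bases are shown because they hold the match, in capitals, at bases 4 to 10 of the probe.
Adm probe: taaGGGCATTttaaagtgattatattgtca
The whole Adm probe lies on mm9 chromosome 7 at 117773088 to 117773147. Positions are those of the scanner files, and which exon or untranslated region a probe lies in is not given in the sources used here.

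Apelin was the member with the lowest signal relative to its control after miR-193b. The Apln probe (mm9 chromosome X, 45378652 to 45378593) read -3.88 and -3.53 on the 2 miR-193b arrays, against -1.70 and -1.24 on the NC arrays of the same set. These levels are log2 signal relative to the 75th percentile of the array, so that 0 is the signal at that percentile. Both miR-193b arrays lay below both NC arrays. The means were -3.70 ± 0.24 after miR-193b and -1.47 ± 0.32 for NC (SD, n = 2 each). Apln fell by 2.23 ± 0.28 on the log2 scale (SE), or 4.69-fold, with an adjusted p of 0.0251 in the limma fit across all 17850 genes. Within slide 1 alone the difference was -2.17, and across slides 2 and 3 it was -2.29. In such bulk RNA, fewer cells making a messenger and less of it per cell cannot be told apart.

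The Apln call after miR-193b was lost in 6 of the 8 fits that left out 1 array. It was kept without either NC array of the 0.6 set (adjusted p = 0.0451). The adjusted p was 0.0563 without NC replicate 1 of the 0.2 set, 0.0579 without its NC replicate 2, 0.0805 without miR-193b replicate 1 and 0.0654 without miR-193b replicate 2. It was 0.0621 without either miR-365a array, which enter only the shared estimate of the spread. It was 0.092 with no filter on dim probes and 0.136 with the 0.2 set fitted alone. The call was also lost with slide as a fixed block, where the difference of -2.17 rests on the slide 1 pair alone. The difference itself was -1.40 with another background correction (normexp, adjusted p = 0.0179) and -1.46 in the deposited log2 values (adjusted p = 0.0175). In the 0.6 set the Apln levels of -1.31 and -1.69 after miR-365a overlapped the NC levels of -1.51 and -2.16, with a difference of 0.33 ± 0.28 (adjusted p = 0.502).

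Adrenomedullin was low after the other microRNA. Adm read -2.99 and -2.69 on the 2 miR-365a arrays, against -1.09 and -0.50 on the NC arrays of the 0.6 set, with no overlap. The means were -2.84 ± 0.21 after miR-365a and -0.79 ± 0.42 for NC (SD, n = 2 each). Adm fell by 2.05 ± 0.29 on the log2 scale, or 4.14-fold (limma, adjusted p = 0.00957). After miR-193b the levels of -1.18 and -1.79 overlapped the NC levels of -1.40 and -1.80, with a difference of 0.12 ± 0.29 (adjusted p = 0.845). Without miR-365a replicate 1 the adjusted p for Adm after miR-365a was 0.0637, and without replicate 2 it was 0.0506.

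VEGF-A, the main growth factor for blood vessel endothelium, was read by 2 probes that gave nearly the same difference after miR-365a. The brighter probe (mm9 chromosome 17, 46154446 to 46154387) read -2.67 and -3.66 after miR-365a, against -0.73 and -1.50 for NC. Its means were -3.16 ± 0.70 after miR-365a and -1.12 ± 0.55 for NC (SD, n = 2 each), and Vegfa fell by 2.05 ± 0.37, or 4.13-fold (limma, adjusted p = 0.0186). Both miR-365a arrays lay below both NC arrays, and the replicates of each group lay far apart for this gene, as the SDs show.

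The dimmer Vegfa probe (46162435 to 46162376) read -5.03 and -5.69 after miR-365a, against -3.003 and -3.51 for NC. It fell by 2.10 ± 0.26, or 4.30-fold (adjusted p = 0.00677), again with no overlap. After miR-193b the brighter probe differed by -0.34 ± 0.37 (adjusted p = 0.627) and the dimmer one by 0.12 ± 0.26 (adjusted p = 0.817). At either probe the 2 groups did not overlap, but at the dimmer one the nearest arrays read -3.543 after miR-193b and -3.545 for NC. The differences of the 2 probes lay on opposite sides of 0. For the brighter probe the call after miR-365a was lost when leaving out NC replicate 1 of the 0.6 set (adjusted p = 0.0918) or miR-365a replicate 2 (0.0745), and stood at 0.0503 with slide as a fixed block or the set fitted alone and at 0.0545 with no filter on dim probes.

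Endothelin-1 was the member that rose after miR-365a. Edn1 (mm9 chromosome 13, 42403101 to 42403160, printed 10 times on each array and averaged) read 0.77 and 0.88 on the miR-365a arrays, against -1.65 and -0.99 on the NC arrays. The means were 0.83 ± 0.080 after miR-365a and -1.32 ± 0.47 for NC (SD, n = 2 each), and Edn1 rose by 2.15 ± 0.40, or 4.43-fold (limma, adjusted p = 0.0199). After miR-193b it read -1.003 and -1.73, against -1.86 and -2.83 for NC. Those groups did not overlap either, but the difference of 0.97 ± 0.40 missed the threshold (adjusted p = 0.234, unadjusted p = 0.0499 in the same limma fit). The miR-365a call was lost without miR-365a replicate 1 (adjusted p = 0.0919), without miR-365a replicate 2 (0.101) and without NC replicate 1 of the 0.6 set (0.105), and with no filter on dim probes (0.0577).

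**Figure D1:**
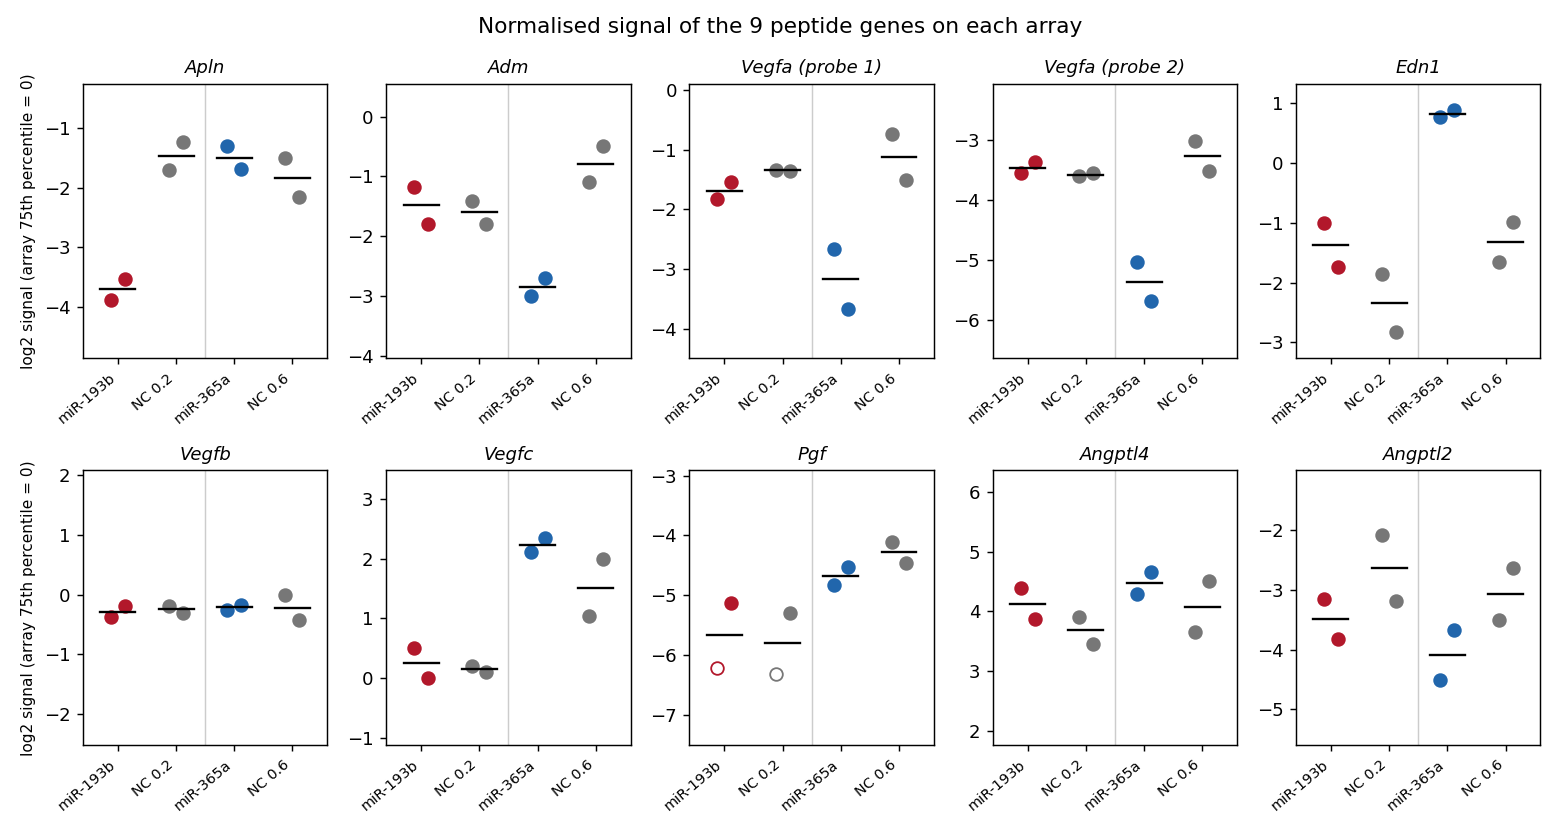
Log2 signal of each probe relative to the array's 75th percentile (y axis, the same span in every panel), for miR-193b and NC of the 0.2 set and for miR-365a and NC of the 0.6 set (x axis). Points are single arrays (replicate 1 left, replicate 2 right), lines are means of 2 arrays and open points were not well above background; Apln is low on the miR-193b arrays, whereas on the miR-365a arrays Adm and both Vegfa probes are low and Edn1 is high.

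The other members of the VEGF family did not pass the test in either comparison. Vegfb, a ligand of VEGF receptor 1, was nearly level over all 8 arrays, from -0.43 to -0.012. Its differences were -0.041 ± 0.17 after miR-193b (adjusted p = 0.91) and 0.0072 ± 0.17 after miR-365a (adjusted p = 0.988).

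Vegfc, the growth factor of lymphatic endothelium, read 2.11 and 2.35 after miR-365a, against 1.04 and 1.99 for NC of the 0.6 set. The groups did not overlap, and the difference was 0.71 ± 0.32 (adjusted p = 0.196). In the 0.2 set it read 0.50 and 0.0091 after miR-193b, against 0.20 and 0.097 for NC, a difference of 0.11 ± 0.32 (adjusted p = 0.875). Neither difference passed the adjusted threshold.

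Pgf, encoding placental growth factor, was the dimmest of these probes and was not well above background on replicate 1 of both groups of the 0.2 set. It read -4.84 and -4.53 after miR-365a, against -4.11 and -4.46 for NC. These did not overlap, but the difference of -0.40 ± 0.45 did not pass the test (adjusted p = 0.627). After miR-193b the difference was 0.14 ± 0.45 (adjusted p = 0.886).

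Angptl4, encoding a secreted inhibitor of lipoprotein lipase that also acts on vessels, read 4.39 and 3.86 after miR-193b, against 3.90 and 3.46 for NC. In the 0.6 set it read 4.28 and 4.66 after miR-365a, against 3.65 and 4.50 for NC. The groups overlapped in both sets, and the differences of 0.45 ± 0.34 and 0.40 ± 0.34 did not pass the test (adjusted p = 0.478 and 0.51).

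Angptl2, encoding a secreted protein of the same family, read -3.15 and -3.82 after miR-193b, against -2.09 and -3.19 for NC. It read -4.52 and -3.67 after miR-365a, against -3.51 and -2.64 for NC. The differences were -0.85 ± 0.51 (adjusted p = 0.38) and -1.02 ± 0.51 (adjusted p = 0.233), both negative and neither past the test. The groups overlapped in the 0.2 set and not in the 0.6 set.

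After miR-193b, 1 of the 9 genes was called, and lower, beside 2.86% of all genes tested (1.71% higher and 1.14% lower). After miR-365a 3 of the 9 were called, 1 higher and 2 lower, beside 15.8% of all genes (7.77% higher and 7.99% lower). The choice of the genes used these comparisons, so nothing is read from the counts. Groups that do not overlap are common with 2 arrays each: this held for 52.1% of genes after miR-193b and 61.6% after miR-365a. Calls of at least 4-fold were rarer, at 0.246% of genes after miR-193b and 0.678% after miR-365a.

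The sizes also stand against all genes tested. The median difference over the 9 genes was 0.11 after miR-193b and 0.0072 after miR-365a, beside 0.051 and 0.022 over all genes. By size regardless of sign, Apln exceeded 99.5% of genes after miR-193b, and Edn1, which was not called there, exceeded 94.2%. After miR-365a, Adm exceeded 99.2% of genes, Vegfa 99.2% and Edn1 99.3%. The choice of the genes used these differences, so nothing is read from these ranks either.

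**Figure D2:**
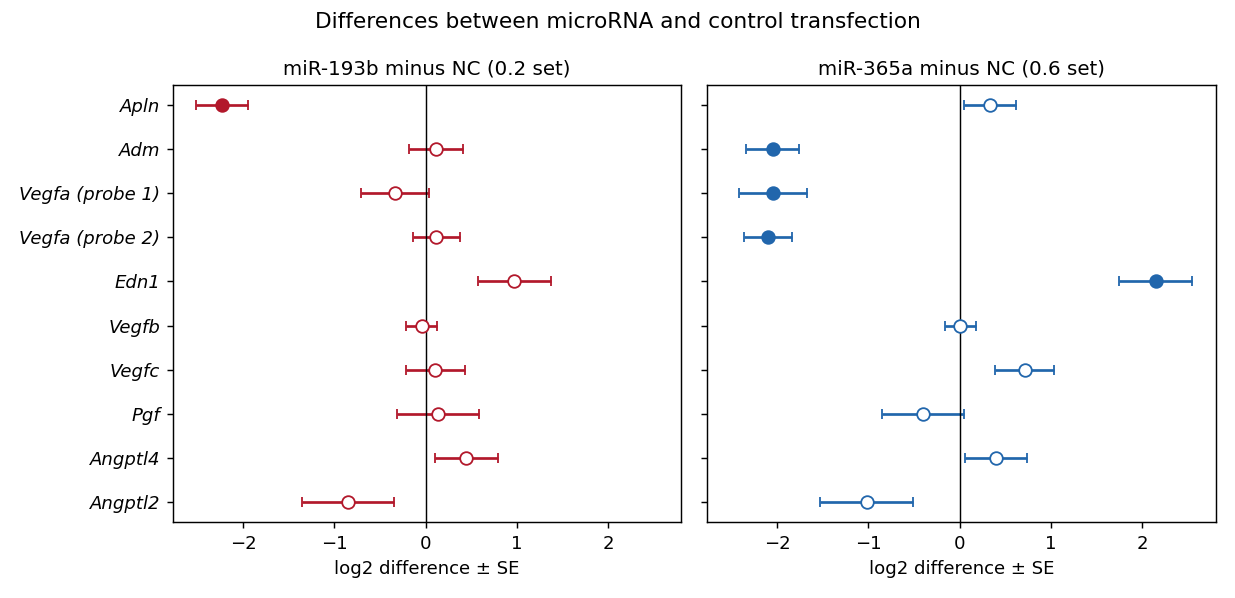
Log2 difference with its SE (x axis) for each probe of the 9 genes (rows), after miR-193b against NC of the 0.2 set (left) and after miR-365a against NC of the 0.6 set (right); n is 2 arrays in each group. Filled points passed the adjusted p threshold of 0.05: Apln at -2.23 on the left, and Adm at -2.05, Vegfa at -2.05 and -2.10 and Edn1 at 2.15 on the right.

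Whether the 2 microRNAs differ in effect was tested as the miR-365a difference minus the miR-193b difference, each taken against NC of the same set. For Apln this was 2.56 ± 0.40 (limma, adjusted p = 0.0302) and for Adm -2.17 ± 0.42 (adjusted p = 0.04997). For Vegfa the dimmer probe gave -2.22 ± 0.37 (adjusted p = 0.0344), whereas the brighter probe gave -1.71 ± 0.53 and was not called (adjusted p = 0.142). Edn1, called after miR-365a and not after miR-193b, was not shown to differ between them (1.17 ± 0.57, adjusted p = 0.32). Of the 9 genes 2 were called, 1 higher and 1 lower, beside 3.47% of all genes (1.09% higher and 2.38% lower). Neither call was kept in any of the fits that left out 1 of the 8 arrays, where the adjusted p was 0.055 to 0.106 for Apln and 0.0649 to 0.152 for Adm. The 2 microRNAs were not run in the same set, so the difference in effect cannot be told apart from a difference in response between sets. The difference in effect is also made from the differences in view when the genes were chosen, so nothing is read from the count of 2.

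The NC cells of the 2 sets give a comparison that was not itself used to choose the genes. Its arrays are the references of the differences that were in view, so it is not independent of the choice. Vegfc read 1.04 and 1.99 in the 0.6 set, against 0.20 and 0.097 in the 0.2 set, a difference of 1.37 ± 0.32 (limma, adjusted p = 0.0395). It was the only one of the 9 called, higher in the 0.6 set, where 15.5% of all genes were called, 11.5% higher and 3.98% lower. The Vegfc call was lost without either NC array of the 0.2 set (adjusted p = 0.104 and 0.102), without NC replicate 2 of the 0.6 set (0.129) and without either miR-365a array (0.0693). It was also lost with slide as a random block (0.0838) and with no filter on dim probes (0.0687). Adm (0.81 ± 0.29, adjusted p = 0.111) and Edn1 (1.02 ± 0.40, 0.131) also had no overlap between the NC arrays of the sets, as 61.6% of genes did. Pgf passed the filter only through the 0.6 set, where it is brighter, so its difference between the sets is not used. Each microRNA was compared only with NC arrays of the same set.

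The match to the miR-365 seed seen in the Adm probe was looked for in the main probe of every tested gene, on the strand the array files print and without regard to overlapping matches. GGGCATT stood in 55 of 17850 probes, or 0.308%. After miR-365a the median difference of these 55 genes was -0.63, beside 0.022 for all genes, and 47 of 55 lay below 0, beside 47.1% of all genes. Of the 55, 24 were called lower (43.6%, beside 7.99% of all genes) and 1, Hif1an, was called higher. Their differences spanned -2.16 to 0.96, and Adm at -2.05 had 1 gene below it.

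GGCCAGT, the match to the miR-193b seed, stood in 63 probes, or 0.353%, none of them of the 9 genes. After miR-193b the median of these 63 was -0.031, beside 0.051 for all genes, 38 lay below 0, beside 44.3% of all genes, and 5 were called lower (7.94%, beside 1.14%). A 60-base probe covers little of a messenger, so an absent match says only that the letters are not in the probe; the rest of the Apln, Vegfa and Edn1 messengers was not searched. A match is a description of the probe and not a shown site.

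**Figure D3:**
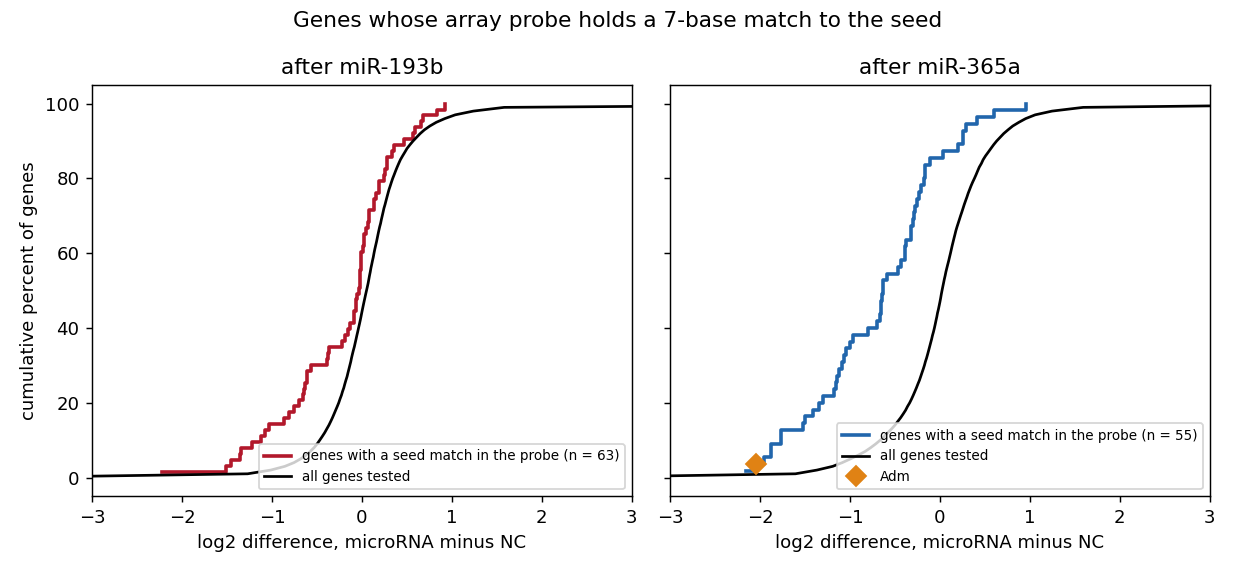
Cumulative percent of genes (y axis) by log2 difference against NC (x axis), for genes whose probe holds the 7-base seed match (coloured steps; 63 for miR-193b, left, and 55 for miR-365a, right) and for all 17850 genes tested (black). The diamond marks Adm at -2.05, and the coloured line on the right lies left of the black one, with medians of -0.63 and 0.022.

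Genes with the pattern most like that of Apln and Edn1 were found by Pearson's r over the 8 arrays, after the mean of each set's NC arrays was taken off. For Apln they were Med14 (r = 0.993), Ap5m1 (0.989) and Samd14 (0.989), with differences of -1.02, -1.23 and -0.41 after miR-193b. For Edn1 they were Klra9 (0.995), Ttc39b (0.992) and Cttn (0.992), with differences of 1.17, 0.70 and 0.60 after miR-365a. These are the highest values over 8 arrays that share sets and slides, among the 17850 genes less 65 with a flagged array. They are given as a description.

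Of 23 other angiogenic ligands on the array, such as angiopoietins, ephrins and platelet-derived growth factors, 14 were tested, and none was called after miR-193b (2 at an unadjusted p under 0.05, median 0.15). Over all genes 2.86% were called after miR-193b and 15.8% after miR-365a, with medians of 0.051 and 0.022. After miR-365a, 1 of the 14 was called (median -0.13): Angpt2, the context-dependent ligand of the TIE2 receptor, rose by 1.65 ± 0.20, or 3.14-fold (adjusted p = 0.00634). Angpt2 after miR-193b differed by 0.996 ± 0.20 and missed the threshold (adjusted p = 0.0583). The count of these ligands called higher after miR-193b was 1 with normexp, with a filter asking for signal over background on every array, with slide as a fixed block, with a trended and robust variance and without miR-193b replicate 2. Of 16 other vasoactive peptide genes, 6 were tested and none was called after miR-193b (none at an unadjusted p under 0.05, median -0.18) or after miR-365a (2 at an unadjusted p under 0.05, median -0.51).

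Among 14 tested of 25 genes for receptors and for the processing of these peptides, 1 fell after miR-193b and 2 fell after miR-365a, with medians of 0.069 and -0.11, beside 1.14% and 7.99% of all genes called lower. Nrp2, the neuropilin that binds VEGF-C and class 3 semaphorins, fell by 1.22 ± 0.17 after miR-193b (2.32-fold, adjusted p = 0.0308), but its other probe differed by -0.0086. Furin, a protease that cuts many precursor proteins, VEGF-C among them, fell by 1.23 ± 0.18 after miR-365a (2.34-fold, adjusted p = 0.0105). Ece1, the enzyme that makes endothelin-1 from its precursor, fell by 0.67 ± 0.17 after miR-365a (1.59-fold, adjusted p = 0.0453), while Edn1 rose. Kdr and Flt1, encoding the VEGF receptors 2 and 1, differed by 0.088 and -0.55 after miR-365a and were not called. The count of 1 after miR-193b was 0 without any 1 array of the 0.2 set or of miR-365a, with slide as a fixed block, with the set fitted alone and with no filter on dim probes. The count of 2 after miR-365a was 0 without either miR-365a array and 1 without either miR-193b array or either NC array of the 0.6 set.

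Of 12 inhibitors of angiogenesis, 8 were tested. None was called after miR-193b (1 at an unadjusted p under 0.05), and 3 fell after miR-365a, the other 5 not passing the test (median -0.072), beside 7.99% of all genes called lower. Sema3f, a semaphorin that repels endothelial cells, fell by 1.03 ± 0.17 (2.04-fold, adjusted p = 0.0138). Adamts1, a secreted metalloprotease, fell by 1.67 ± 0.44 (3.17-fold, adjusted p = 0.0499). Serpinf1, encoding the secreted serpin PEDF, fell by 1.15 ± 0.28 (2.22-fold, adjusted p = 0.0429), but was above background on 1 of 2 miR-365a arrays, and its other probe differed by -0.21. The count of 3 was 0 without either miR-365a array and 1 without any other array, and also 1 with quantile normalization, slide as a fixed block, the set fitted alone or no filter on dim probes.

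Vegfa, Adm and Angptl4 are known targets of hypoxia-inducible factors, so other genes of that response are given from a list that holds none of the 9. Of 26 such genes 24 were tested. After miR-193b none was called (6 at an unadjusted p under 0.05, median 0.28). After miR-365a 4 fell and none rose (9 at an unadjusted p under 0.05, median -0.23). Over all genes 7.99% were called lower and 7.77% higher after miR-365a, with a median of 0.022. The 4 were Bnip3l, a mitophagy receptor (fell by 1.19 ± 0.17, adjusted p = 0.00912), Ak4, an adenylate kinase (fell by 0.77 ± 0.13, 0.0134), Pfkfb3, a regulator of glycolysis (fell by 0.84 ± 0.16, 0.0205), and the glycolytic enzyme Aldoa (fell by 0.46 ± 0.10, 0.0348). The other probe of Ak4 differed by 0.16, whereas those of Bnip3l and Pfkfb3 differed by -1.38 to -1.15 and by -1.02. Slc2a1, the glucose transporter GLUT1, differed by -0.42 after miR-365a (adjusted p = 0.314), Car9, a carbonic anhydrase, by -0.19 (0.491) and Ldha by -0.19 (0.394). Other genes of the list lay above 0 without being called, such as Ddit4 at 1.09 (adjusted p = 0.101) and Pfkfb4 at 0.41 (0.0721). Between the NC arrays of the sets, 6 of the 24 were called higher in the 0.6 set and none lower (median 0.36). Over all genes 11.5% were called higher there and 3.98% lower (median 0.12). The count of 4 was 1 with no filter on dim probes, 1 without either miR-365a array, 0 without NC replicate 1 and 1 without NC replicate 2 of the 0.6 set.

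Among 10 tested of 11 genes of the factors themselves and their regulators, none was called after miR-193b (1 at an unadjusted p under 0.05). After miR-365a 2 rose and 8 did not pass the test, with a median of -0.089, beside 7.77% of all genes called higher. Cited2, which competes with hypoxia-inducible factors for their coactivators, rose by 1.66 ± 0.27 (3.17-fold, adjusted p = 0.0135), and its other probe differed by 1.57. Hif1an, the hydroxylase that blocks coactivator binding, rose by 0.96 ± 0.19 (1.94-fold, adjusted p = 0.0233). Hif1a and Epas1, encoding the oxygen-regulated subunits, differed by -0.072 and -0.20 and were not called (adjusted p = 0.882 and 0.327). Egln3, of the same list, differed by -1.37 and was not called either (adjusted p = 0.207). Without either miR-365a array or NC replicate 1 of the 0.6 set the count of 2 was 0, and with slide as a fixed block, the set fitted alone or no filter on dim probes it was 1.

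Angptl4 is also a known target of peroxisome proliferator-activated receptors. Of 17 genes of those receptors and their other targets, 16 were tested, and none was called after miR-193b (3 at an unadjusted p under 0.05, median 0.13). After miR-365a 5 rose and 11 did not pass the test, with a median of 0.53, beside 7.77% of all genes called higher and a median of 0.022. Cpt1a, which carries fatty acids into mitochondria, rose by 1.26 ± 0.13 (2.40-fold, adjusted p = 0.00473), with 1.37 at its other probe. Ehhadh, a peroxisomal enzyme of fatty acid oxidation, rose by 1.33 ± 0.19 (2.52-fold, adjusted p = 0.00943), and Plin2, a coat protein of lipid droplets, by 1.15 ± 0.30 (adjusted p = 0.0493). Acaa2 and Rxra rose by 0.57 and 0.60, the other probe of Rxra differing by 0.21. Angptl4 itself, at 0.40 ± 0.34, was not among them. Every fit that left out 1 array called fewer than 5, from 1 without miR-365a replicate 2 or NC replicate 1 of the 0.6 set to 3. With no filter on dim probes, slide as a fixed block or the set fitted alone, 2 were called.

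**Figure D4:**
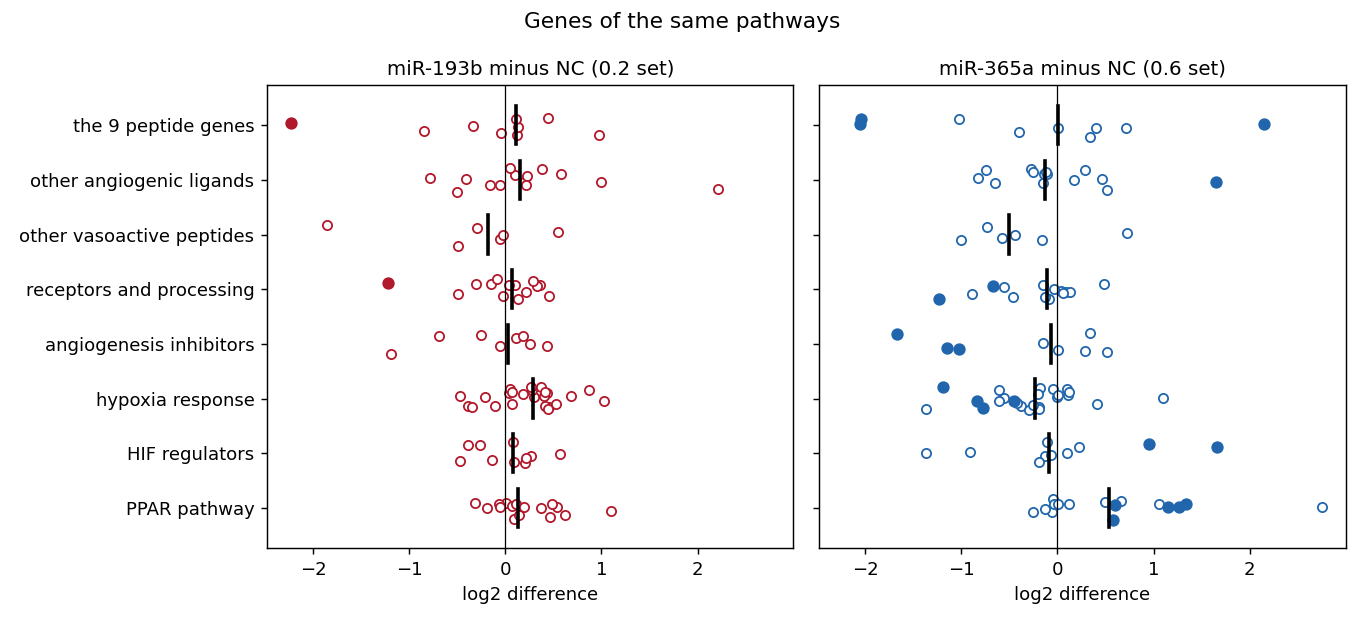
Log2 difference (x axis) of each tested gene of the 9 peptide genes and of 7 related lists (rows), after miR-193b against NC (left) and after miR-365a against NC (right). Filled points passed the adjusted p threshold of 0.05, vertical bars are list medians and points are spread vertically only for legibility; Egln1 and Egln3 stand in both the hypoxia and the regulator row.

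Of 10 epithelial and keratinocyte markers, Krt8 was called higher after miR-365a (0.61 ± 0.14, adjusted p = 0.0384) and 9 were not called (list median -0.046). All 10 were above background on both arrays of every group. Their summed level, in multiples of the array's 75th percentile, was 778 to 805 after miR-193b and 635 to 645 for NC, and 711 to 847 after miR-365a and 693 to 759 for NC. Markers of other cell types were in part above background. Of 8 endothelial markers, 3 were above background on both arrays after miR-193b and 4 in each other group, while Cdh5, Emcn and Tek were below it on both arrays of every group. Of 7 fibroblast markers, 3 were above background after miR-365a, 2 for NC of the 0.6 set and 1 in each group of the 0.2 set, while Col3a1, Dcn and Lum were below it throughout. Of 6 leukocyte markers, 3 were above background in each group of the 0.2 set and 4 in each of the 0.6 set, while Lyz2 was below it throughout. Their summed level was 3.32 to 3.78 after miR-193b and 3.39 to 4.05 for NC, and 5.87 to 7.32 after miR-365a and 5.69 to 7.20 for NC. Des, Myh11 and Rgs5 of 4 mural markers and Adipoq and Cfd of 4 adipocyte markers were below background on both arrays of every group. The summed endothelial level was 7.75 to 8.80 after miR-193b and 6.60 to 8.55 for NC, and 6.19 to 7.07 after miR-365a and 8.499 to 8.97 for NC. The summed fibroblast level was 0.132 to 0.143 after miR-193b and 0.108 to 0.123 for NC, and 0.0950 to 0.126 after miR-365a and 0.0823 to 0.115 for NC. Esam, of the endothelial list, rose after miR-193b by 0.89 ± 0.11 (adjusted p = 0.0251), and Pdgfrb, of the fibroblast list, was at least 2.19-fold higher after miR-365a, not being well above background on the NC arrays (adjusted p = 0.00912). The other tested markers of these lists were not called there, and the list medians were 0.13 and -0.22. Pecam1 differed by -0.48 after miR-193b, and Pdgfra and Col1a2 by -0.27 and -0.22 after miR-365a. The part of these markers in the results was not tested.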

How the data were processed

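Total RNA (RIN 10) of mSCC-20 cells was labelled with Cy3 and hybridised to 8 arrays. The deposited scanner files give each spot's intensity; the column used is the processed signal, which Agilent Feature Extraction 10.7.3.1 corrects for background, per the file headers, without normalizing arrays to each other. The log2 values of the authors' deposited table, with column medians of 7.04 to 7.05, served as an alternative; how they were normalized and centred is not given in the sources used here, but each column correlated best with its own array (r = 0.965 to 0.981). The submitters' processing notes name limma and mm9.

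Control spots and flagged spots were left out, spots of one probe averaged, and log2(processed signal) minus the array's 75th percentile taken. The filter kept genes with signal well above background in both replicates of at least 1 group, 17850 in all. The brightest probe stands for a gene, with others given beside it. Of 39429 probes, 27508 were named by accession and 3544 by current symbol through RefSeq (GRCm38.p6), 404 by synonym and 7973 kept the name of the files. Of the 43020 gene spots, 51.4 to 54.6% were well above background on the 0.2 set and 58.9 to 62.1% on the 0.6 set, and none was saturated. The precision is limited by 2 arrays per group.

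The limma 3.58.1 model (R 4.3.3) was fitted over all 8 arrays with set, miR-193b and miR-365a as terms (4 residual degrees of freedom). P-values were adjusted by Benjamini-Hochberg over all genes tested and called under 0.05. The fit was tested on simulated data. Python 3.11.15 was used for tables and figures. The 9 genes, the lists and the tests were chosen with earlier results of these data known. The named genes of a list are up to 4 called genes per comparison by adjusted p, and others named beside them were chosen after their values were seen. Alternatives were background correction, normalization, the deposited values, the filter, slide as a block, the variance model, each set alone and leaving out each array.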

Additional observations from a re-analysis of the deposited data

Results flagged for a closer look

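Among the 9 genes, 2 passed the limma test of the miR-365a difference minus the miR-193b difference, beside 3.47% of all genes tested. They were Apln (2.56 on the log2 scale, adjusted p = 0.0302) and Adm (-2.17, adjusted p = 0.04997). Neither was called with no filter on dim probes (limma, adjusted p = 0.107 and 0.147). The dimmer probe of Vegfa passed the same test (-2.22, adjusted p = 0.0344), whereas the brighter one, which stands for the gene, did not (-1.71, adjusted p = 0.142). The 2 effects come from different sets of arrays. Both were in view when the genes were chosen, so these tests are not independent evidence for the choice. No group had more than 2 arrays, so no array could be tested as an outlier within its group.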

How the results depend on the processing

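No difference that was called for any of the 9 genes changed sign under any alternative. The count of genes called was 510 after miR-193b, 2814 after miR-365a, 620 for the difference between their effects and 2770 between NC of the 2 sets. With normexp the counts after miR-193b and for the difference in effect were 972 and 1046, in the deposited log2 values 844 and 979, with probes above background on all 8 arrays 872 and 1062, and with a trended and robust variance 1038 and 1117. Without the filter on dim probes the 4 counts were 11, 1057, 0 and 1027. With slide as a fixed block 170 genes were called after miR-193b and 131 for the difference. That fit takes the miR-193b effect from the slide 1 pair alone, 1 array against 1. With slide as a random block (correlation 0.30) 588 and 3752 genes were called after the 2 microRNAs, 1014 for the difference and 1375 between NC sets. With each set fitted alone 0 and 2332 were called. Leaving out 1 array gave 9 to 277, 589 to 2835, 0 to 554 and 481 to 2400 genes.

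Of the 9 genes, 1, 3, 2 and 1 were called in these comparisons, beside 2.86%, 15.8%, 3.47% and 15.5% of all genes. Nothing is read from these counts. Where an alternative called 2 between NC sets, the second was Pgf, whose difference between the sets is not used. Without the filter 0, 1, 0 and 0 were called; with slide as a fixed block 0, 2 and 0; with each set alone 0 and 2; between NC sets 0 with slide as a random block and 2 with normexp or the deposited values. Leaving out 1 array gave 0 to 1, 0 to 3, 0 and 0 to 2. The Apln call after miR-193b was kept in 8 of 17 alternatives with a test (difference -2.46 to -1.40, adjusted p 0.00765 to 0.136), Adm after miR-365a in 15 of 17 (-2.34 to -1.69, 0.00223 to 0.0637), Edn1 in 13 of 17 (1.81 to 2.48, 0.00362 to 0.105) and Vegfa in 13 of 18 (-2.54 to -1.55, 0.00386 to 0.0918). The cause was not tested. Leaving out an array of the other set did not change these differences, only the estimate of the spread and the adjusted p. For the miR-365a calls, slide as a fixed block and the set fitted alone gave the same values. The tallies therefore count settings that are not independent checks. The median difference over all genes lay between -0.15 and 0.12 in every comparison under the settings that do not leave out an array or a set. No analysis paired by replicate number was made, because the replicate numbers were given in accession order and pair no arrays. In the 0.2 set only slide 1 held both groups, and every fit with slide as a fixed block took its miR-193b effect from that pair. The 2 arrays a group and 4 residual degrees of freedom limit the precision, and Pgf lay near background in the 0.2 set.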
